A study of Homo sapiens with 6 samples.

Results

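The 9 genes described here, MTOR, IGF1R, SMARCA5, CTDSPL, BAZ2A, FGFR3, MTMR3, RAVER2 and HS3ST3B1, are mRNAs known as targets of the miR-99 family of microRNAs. They were taken by name as a list of known targets, not by a measured value, though with earlier results of these data known. They are 9 of the 60708 genes in the count tables. The libraries were made from MDA-MB-231 cells, an established line of human triple-negative breast cancer. They received a synthetic mimic of miR-99b-5p, or a scrambled oligonucleotide as control, at 25 nM, and cells were harvested after 18 hours. AGO2 was pulled down with an antibody, which gave the AGO2-IP fraction, and the RNA that stayed behind gave the flow-through. There were 2 AGO2-IP and 2 flow-through libraries with the mimic, from 2 biological replicates, and 1 AGO2-IP and 1 flow-through library with the control. All cells were of 1 line, the transfections were transient, and the fraction of each control library rests on its sample title alone. The listing of samples that accompanies the study names both control libraries as replicates and gives them no fraction. Were they of the same fraction, no control value of AGO2-IP over flow-through could be read as such.

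MicroRNAs guide Argonaute proteins, of which AGO2 is one, to mRNAs that pair with them, mostly through a short stretch near the 5′ end of the microRNA called the seed. Paired mRNAs are bound by Argonaute and are usually translated less and degraded faster. The miR-99 family is known for repressing mRNAs of growth factor signalling and of chromatin remodelling, and seed matches to it are rare in human 3′ untranslated regions (3′UTRs).

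The mature sequences of the 3 family members are shown because the mimic, miR-99b-5p, has the same seed as the other two, so that a known target of any of them can pair with it. RefSeq places them in GRCh38.p14 at chr19:51692618-51692639 on the plus strand (miR-99b-5p), chr21:16539101-16539122 on the plus strand (miR-99a-5p) and chr11:122152275-122152296 on the minus strand (miR-100-5p). Capitals mark the seed, bases 2 to 8.
miR-99b-5p: cACCCGUAgaaccgaccuugcg
miR-99a-5p: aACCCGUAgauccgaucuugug
miR-100-5p: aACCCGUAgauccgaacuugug

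A transcript that pairs with this seed carries TACGGGT (a 7mer-m8 match), TACGGGTA (an 8mer), ACGGGTA (a 7mer-A1) or, at the least, ACGGGT (a 6mer), read on the transcript strand, with each match counted in its longest class only. In 1 transcript per gene of GENCODE 44, all 9 genes held a match in the 3′UTR. IGF1R, CTDSPL, BAZ2A, FGFR3 and HS3ST3B1 held an 8mer, which 47 of 19550 protein-coding genes (0.240%) held. MTOR, SMARCA5, MTMR3 and RAVER2 held a 7mer-m8, the longest match in 159 genes (0.813%). BAZ2A also held a 7mer-m8 in its 3′UTR and a 6mer in its coding sequence. A match of any class was present in 5.76% of the protein-coding genes.

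The following stretches of 28 bases from the 3′UTRs are shown for the genes with the largest differences between libraries (SMARCA5, MTMR3, FGFR3), the highest level (CTDSPL), a large control ratio (HS3ST3B1) and for MTOR. Capitals mark the bases that match the seed, with the closing A of the 8mers. In GRCh38 they lie at chr4:143553217-143553244 (SMARCA5, plus strand, exon 24 of 24), chr22:30027574-30027601 (MTMR3, plus strand, exon 20 of 20), chr4:1807782-1807809 (FGFR3, plus strand, exon 18 of 18), chr3:37983395-37983422 (CTDSPL, plus strand, exon 8 of 8), chr17:14345926-14345953 (HS3ST3B1, plus strand, exon 2 of 2) and chr1:11107181-11107208 (MTOR, minus strand, exon 58 of 58).
SMARCA5: accagtagttctttaattTACGGGTctt
MTMR3: ggtgccaagaggttatgaTACGGGTttc
FGFR3: ccctcagagactgaaatTACGGGTAcct
CTDSPL: atgttttttaaggtaaaTACGGGTAttg
HS3ST3B1: cttgagatttttgttgtTACGGGTAttc
MTOR: gatccataactttagaaaTACGGGTttt

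The sites lie far from each other along the 3′UTRs. Positions here are those of the first base of ACGGGT within each match. For SMARCA5 it is base 52 of a 3′UTR of 4302 bases and for RAVER2 base 98 of 2247. For IGF1R it is base 5603 of 7088 and for CTDSPL base 2546 of 3602. Not every annotated transcript carries the site. A match of any class lay after the coding sequence in 2 of 5 coding transcripts of IGF1R, 2 of 6 of CTDSPL, 3 of 9 of BAZ2A and 6 of 7 of MTOR. Counts per gene do not tell these transcripts apart.

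Counts on genes came to between 38022779 and 48544756 in the mimic libraries and to 8076375 and 7772149 in the control libraries. Read pairs that fell on no single gene made up 95.03% of the control AGO2-IP library and 92.3% of the control flow-through, against 21.4% to 47.2% in the mimic libraries, and 43.4% of the control flow-through gene counts lay on mitochondrially encoded genes. Treatment and library composition cannot be told apart. The mesenchymal markers of the line were abundant, with VIM at 1001 to 27914 and AXL at 10619 to 65395 counts per library, and CD44 had 2757 to 13829. CDKN2A, a gene deleted in the line, had 0 to 5 counts and the oestrogen receptor gene ESR1 had 2 to 23. PGR had 0 to 25 and CDH1 6 to 47, while EPCAM, also expected to be low, had 57 to 329. Of the markers of other cells, PTPRC had 12 to 53 counts, ALB 3 to 19 and PECAM1 4 to 398. The microRNA genes themselves received at most 2 counts in a library, so the mimic was not measured. Levels are given as CPM after TMM scaling, which corrects for differences in library composition, here called normalised counts. Across genes the 2 flow-through libraries of the mimic differed by an SD of 1.44 on the log2 scale and the 2 AGO2-IP libraries by 0.84.

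Per kilobase of exon, CTDSPL had the highest level of the 9 in each of the 6 libraries and FGFR3 or MTMR3 the lowest. In the mimic AGO2-IP libraries CTDSPL reached 28.8 and 41.2 normalised counts per kilobase. SMARCA5 (21.5 and 15.8), BAZ2A (17.6 and 19.1) and HS3ST3B1 (12.5 and 17.0) came next. The SMARCA5 range overlapped those of BAZ2A and HS3ST3B1, which did not overlap each other. MTOR (8.72 and 7.28), IGF1R (5.32 and 4.70), RAVER2 (2.33 and 2.31), MTMR3 (1.58 and 2.08) and FGFR3 (0.401 and 0.568) followed without overlap between neighbours. The MTMR3 level is uncertain, since 65.4% of its exon bases lie under a long noncoding RNA, ENSG00000279159, on the opposite strand. One strand column held 49.0% to 55.1% of the counts of both in each library. The strand columns therefore did not separate the strands, and pairs in the overlap could come from either gene. The unstranded count kept only 8.49% to 14.2% of the read pairs that the strand columns credited to MTMR3. SMARCA5, which shares 400 exon bases with SMARCA5-AS1 and 502 with the pseudogene ENSG00000248924, kept 73.4% to 80.7% in 5 libraries and 40.0% in the second mimic flow-through. The other 7 genes kept at least 96.1%.

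**Figure D1:**
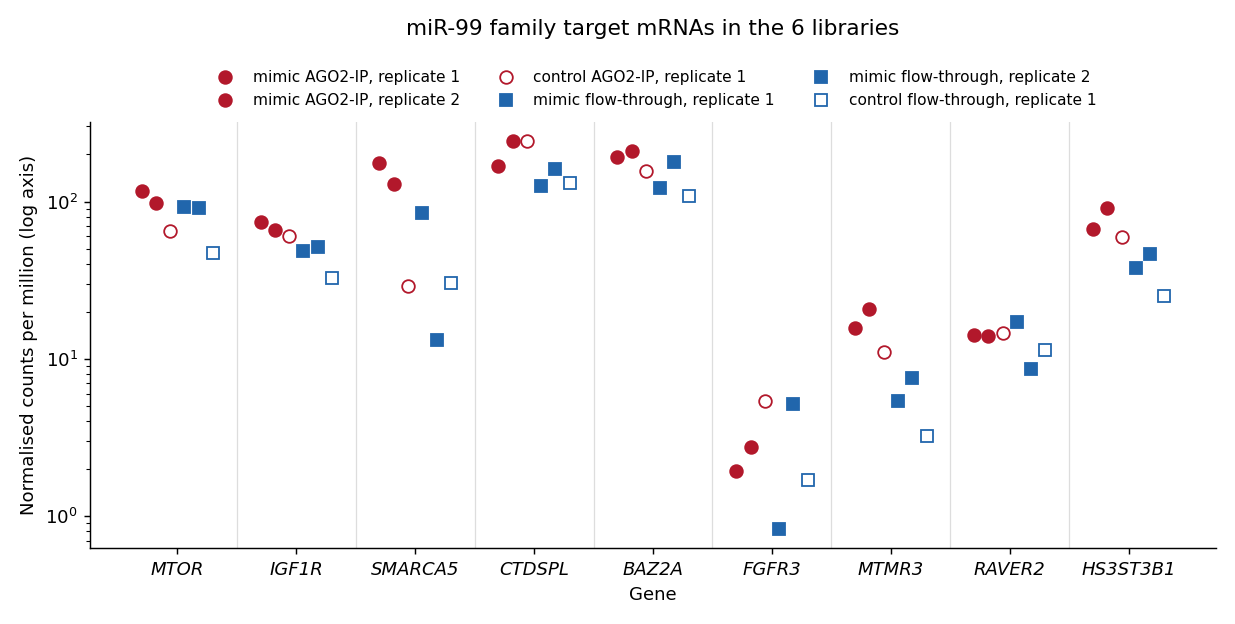
Normalised counts (CPM after TMM scaling, log axis) of the 9 target genes in the 6 libraries, AGO2-IP as circles and flow-through as squares, mimic filled and control open; each point is 1 library. SMARCA5 spans 13.3 to 175 and its mimic flow-through points lie far apart, while for MTOR, IGF1R, CTDSPL, BAZ2A, MTMR3 and HS3ST3B1 both filled circles lie above both filled squares.

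In mimic-transfected cells 8 of the 9 targets had a higher level in the AGO2-IP than in the flow-through, with SMARCA5 and MTMR3 at the top and FGFR3 as the exception. By the quasi-likelihood test of edgeR, with Benjamini-Hochberg adjustment over 13078 genes, none of them was called enriched, where 0.245% of all genes were, and none was called depleted, where 0.413% were. A call needed an adjusted p of at most 0.05 and a log2 fold change of 1 or more in size. Without adjustment 0 of 9 had a p under 0.05, where 23.8% of all genes did. This fit left out the pairing of fractions by replicate. With the replicate number as a block, SMARCA5 (2.15, edgeR unadjusted p = 0.00620) and MTMR3 (1.48, edgeR unadjusted p = 0.0453) were under 0.05 before adjustment. That fit called none of the targets, where it called 601 genes enriched and 664 depleted. PyDESeq2 also called none of the targets, where it called 6.41% of genes enriched and 8.24% depleted, with SMARCA5 (1.64, adjusted p = 0.146) and MTMR3 (1.46, adjusted p = 0.114) the only targets under that limit before adjustment. The median log2 fold change of the 9 was 0.47, against -0.11 over all genes tested, and 8 of 9 lay above 0, where 47% of genes did (all 9 did with TMM factors over every gene, which raised the median of all genes to 0.28 and FGFR3 to 0.20). Both AGO2-IP libraries were above both flow-through libraries for 7 of the 9, where this held for 28.1% of genes.

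Among the growth signalling genes, MTOR, the kinase at the centre of the mTOR complexes, stood at 117 and 97.3 normalised counts in the mimic AGO2-IP and at 91.9 and 90.8 in the mimic flow-through. The groups did not overlap, but the log2 fold change was only 0.21 (SE 0.58, edgeR adjusted p = 0.847). IGF1R, the receptor tyrosine kinase for insulin-like growth factors, stood at 74.1 and 65.6 against 48.7 and 51.3, again without overlap, with a log2 fold change of 0.47 (SE 0.58, edgeR adjusted p = 0.645). FGFR3, a receptor tyrosine kinase for fibroblast growth factors, was scarce, with 47 to 217 counts per mimic library. Its normalised counts were 1.95 and 2.75 in the AGO2-IP and 0.831 and 5.19 in the flow-through. Both AGO2-IP values lay between the flow-through values, and the log2 fold change was -0.38 (SE 0.94, edgeR adjusted p = 0.831). With flow-through replicate 2 left out it was 1.46 and with flow-through replicate 1 left out -1.21.

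Of the chromatin genes, SMARCA5, the ATPase of ISWI nucleosome remodelling complexes, had the largest fold change of the list. It stood at 175 and 129 normalised counts in the mimic AGO2-IP and at 84.8 and 13.3 in the mimic flow-through. Both AGO2-IP values were higher than both flow-through values, but the flow-through values differed widely (-2.67 on the log2 scale, replicate 2 over replicate 1). The log2 fold change was 1.62 (SE 0.81, edgeR adjusted p = 0.243, unadjusted p = 0.0687), higher than in 91.0% of genes. Whether SMARCA5 passed the call depended on the flow-through library used. Without flow-through replicate 1 the fold change was 3.46 (edgeR adjusted p = 0.00156), in a fit where the spread came from the AGO2-IP pair alone, the lone flow-through library was assumed to vary like it, and 20.2% of 12270 genes were called enriched and 20.6% depleted. In turn, without flow-through replicate 2 the fold change was 0.80. Over the 20 alternatives the adjusted p of SMARCA5 ran from 0.00156 to 0.831. BAZ2A, which joins SMARCA5 in the nucleolar remodelling complex that silences ribosomal DNA, stood at 193 and 209 in the AGO2-IP and 122 and 177 in the flow-through. These groups did not overlap, with a log2 fold change of 0.41 (SE 0.58, edgeR adjusted p = 0.692).

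CTDSPL, a small phosphatase that acts on the tail of RNA polymerase II and on the retinoblastoma protein, stood at 169 and 242 normalised counts in the AGO2-IP and 126 and 161 in the flow-through, a log2 fold change of 0.50 (SE 0.59, edgeR adjusted p = 0.620). MTMR3, a phosphatase of phosphoinositide lipids, stood at 15.6 and 20.6 against 5.36 and 7.58. Its groups were well apart, and the log2 fold change of 1.47 (SE 0.69, edgeR adjusted p = 0.224) was higher than in 88.8% of genes. On the strand columns, which also credit both genes with pairs from their overlaps, the MTMR3 fold change was 1.41 and 1.35, and that of SMARCA5 was 1.40 and 1.36.

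RAVER2, an RNA-binding protein that partners the splicing regulator PTBP1, stood at 14.2 and 14.1 normalised counts in the AGO2-IP, between the flow-through values of 17.2 and 8.64. Its log2 fold change was 0.12 (SE 0.69, edgeR adjusted p = 0.935), and it fell below 0 without flow-through replicate 2, at -0.32. HS3ST3B1, an enzyme that adds sulfate to heparan sulfate chains, stood at 67.2 and 91.1 in the AGO2-IP and 37.6 and 46.1 in the flow-through, without overlap, with a log2 fold change of 0.90 (SE 0.59, edgeR adjusted p = 0.366). AGO2 mRNA itself stood at 363 and 589 against 320 and 290 normalised counts in the mimic libraries and at 285 against 162 in the control libraries.

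The control pair asks whether the same mRNAs were already more abundant in the AGO2-IP without the mimic. With 1 library of each fraction it gives a log2 ratio with no replicate check and no test. Intervals here are 95% counting intervals, and they cover counting error only. Of the 7 targets with at least 200 counts over the control pair, 6 lay above 0, where 58.4% of 8245 genes did, with a median of 0.52 against 0.23 over all genes. HS3ST3B1 had the largest control ratio of these 7, 1.24 ± 0.26, from 59.5 normalised counts in the AGO2-IP against 25.1 in the flow-through, and was the one at 1 or more, where 22.3% of genes were. None lay at -1 or less, where 13.7% did. CTDSPL (241 against 131, 0.88 ± 0.12) and IGF1R (60.3 against 32.8, 0.88 ± 0.24) followed, and then BAZ2A (155 against 108, 0.52 ± 0.13), MTOR (64.6 against 47.0, 0.46 ± 0.20) and RAVER2 (14.6 against 11.5, 0.35 ± 0.42). The interval of RAVER2 included 0. SMARCA5 was at 29.0 against 30.3 normalised counts, a log2 ratio of -0.06 ± 0.27 that was not distinguishable from 0 and turned to 0.26 with the GC trend removed and 0.61 with library size alone. FGFR3, with 52 and 10 counts, and MTMR3, with 108 and 19, were below the minimum. On the strand columns, which credited MTMR3 with 1272 and 193 read pairs, MTMR3 passed it. Its control ratios of 1.997 and 1.88 were then the largest of the targets, above its mimic fold changes of 1.41 and 1.35 on the same columns. Pairs that came from ENSG00000279159 cannot be told apart from those of MTMR3 on these columns. HS3ST3B1 was at 0.89 and 1.60 there.

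These 6 targets lay above 0 with the mimic as well, where 39.9% of 8225 genes were above 0 in both. For the same 6 of 7 targets the fold change with the mimic was lower than the ratio with the control, which held for 55.5% of 8225 genes. The exception was SMARCA5. The mimic fit was scaled over 4 libraries and the control ratio over 6, with medians of -0.11 and 0.23 over all genes. With TMM factors over the control pair alone, the BAZ2A control ratio was 0.30, below its mimic fold change of 0.41. MTOR (0.24 against 0.21) and RAVER2 (0.13 against 0.12) were then nearly level. The pattern of SMARCA5, with both mimic AGO2-IP libraries above both mimic flow-through libraries and a control ratio below 0, was shared by 5.53% of genes and rests on the sign of a control ratio that turned with the scaling. The difference of the AGO2-IP over flow-through ratio between mimic and control was tested in 1 edgeR fit of all 6 libraries, in which the lone control libraries were assumed to vary like the mimic libraries. For SMARCA5 it was 1.70 (SE 1.38, edgeR unadjusted p = 0.243, adjusted p = 0.9999). It was below 0 for the other 8 targets, from -2.002 (SE 1.71, edgeR unadjusted p = 0.266) for FGFR3 to -0.10 (SE 1.01, edgeR unadjusted p = 0.925) for BAZ2A, where 54.7% of genes were below 0. The test called 0 of 9 targets and 0 of 13319 genes, and 82 genes (0.616%), none of them a target, had an unadjusted p under 0.05. The sign of the smaller differences turned with the scaling. With TMM factors taken over every gene in the table, which moved the median of all genes from -0.13 to 0.25, 7 of the 9 differences were above 0.

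**Figure D2:**
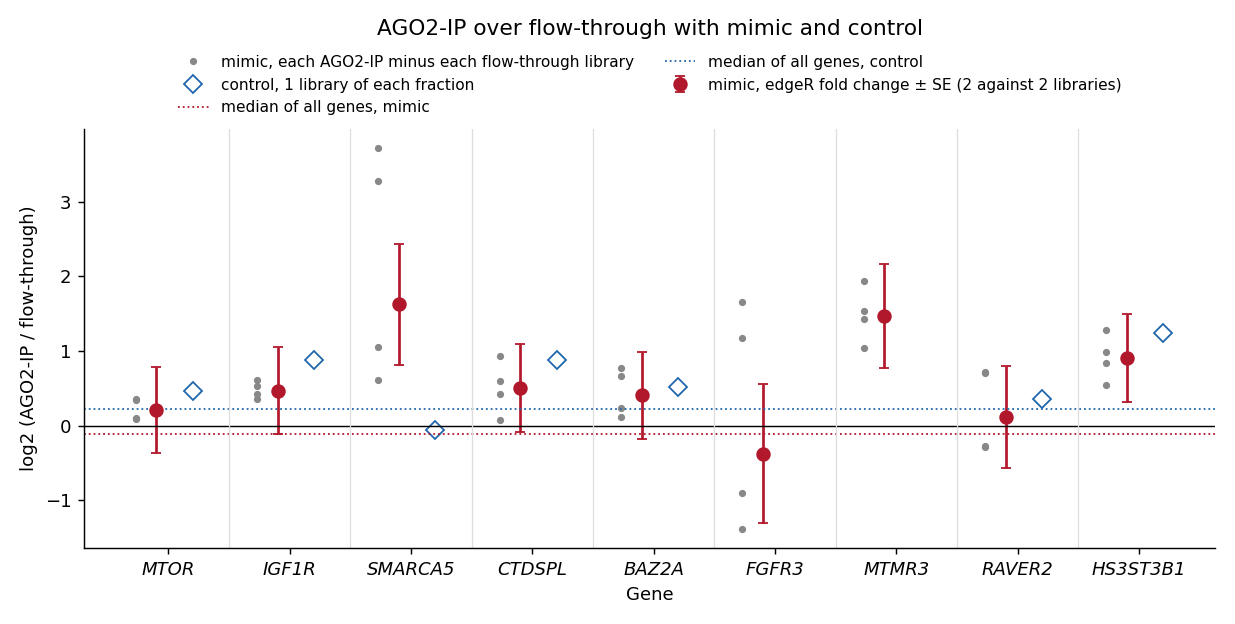
log2 ratio of AGO2-IP over flow-through for the 9 target genes. Red points with bars are the mimic fold change ± SE from 2 against 2 libraries, grey dots are each of the 4 pairings of single mimic libraries, blue diamonds are the control pair and dotted lines are medians of all genes. Diamonds lie above the red points for the 6 measured targets other than SMARCA5, whose grey dots span 0.61 to 3.72.

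Comparing mimic with control within the AGO2-IP asks which mRNAs gained in the pulled-down fraction when the microRNA was added. SMARCA5 was the one target with a log2 ratio of 1 or more, a size that 19.4% of 11467 genes reached. Its 175 and 129 normalised counts with the mimic stood against 29.0 with the control, a mean log2 ratio of 2.37 that was higher than in 98.3% of genes. The ratio was 2.15 and 2.59 with the 2 mimic libraries, and 13.9% of genes reached 1 with both. FGFR3 was the one target at -1 or less, which 15.6% of genes were, with 1.95 and 2.75 against 5.36 normalised counts and a log2 ratio of -1.19. The other 7 lay between, with MTOR at 0.72, MTMR3 at 0.68, HS3ST3B1 at 0.40, BAZ2A at 0.37, IGF1R at 0.21, RAVER2 at -0.05 and CTDSPL at -0.25. On the strand columns MTMR3 was at 0.15 and -0.16, so that its direction was not settled. The median of the 9 was 0.37, against 0.10 over all genes, and 6 of 9 were above 0 with both mimic libraries, where 44.1% of genes were. By the mean, 6 of 9 were above 0, and 5 with library size alone or 8 with TMM factors over every gene. In the edgeR fit of all 6 libraries none of the 9 was called, where 0.165% of 13319 genes were, and SMARCA5 had an unadjusted p of 0.0493 and an adjusted p of 0.631.

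In the flow-through, which holds the RNA not bound by the antibody, none of the 9 targets was lower with the mimic in both libraries, where 20% of 12254 genes were. All 9 mean log2 ratios lay above 0, where 54.3% of genes did, and none reached 1, where 11% did, or -1, where 9.66% did. MTMR3 (5.36 and 7.58 against 3.25 normalised counts, 0.96), MTOR (91.9 and 90.8 against 47.0, 0.96), HS3ST3B1 (37.6 and 46.1 against 25.1, 0.73), IGF1R (48.7 and 51.3 against 32.8, 0.61) and BAZ2A (122 and 177 against 108, 0.44) were higher than the control in both mimic libraries, where 32.6% of genes were. CTDSPL (126 and 161 against 131, 0.12), RAVER2 (17.2 and 8.64 against 11.5, 0.09), FGFR3 (0.831 and 5.19 against 1.71, 0.29) and SMARCA5 (84.8 and 13.3 against 30.3, 0.15) lay on either side of the control. The control values of MTMR3 and FGFR3 rest on 19 and 10 counts. On the strand columns the MTMR3 ratio was 0.68 and 0.32. The count above 0 fell to 7 of 9 without flow-through replicate 1, 7 of 8 without flow-through replicate 2 and 5 of 7 with all libraries thinned to the shallowest. The median of the 9 was 0.44, against 0.08 over all genes. The edgeR fit of all 6 libraries called 0 of 9, where 0.113% of genes were called, and no target had an unadjusted p under 0.05, the smallest being that of MTOR at 0.221.

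**Figure D3:**
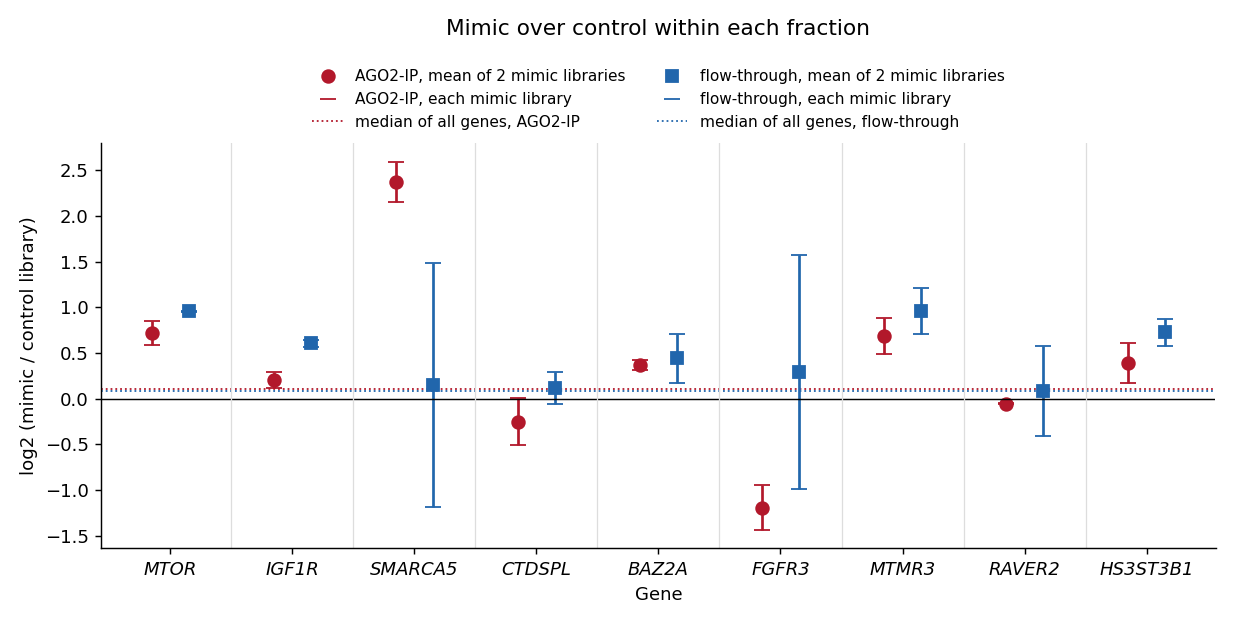
log2 ratio of mimic over control for the 9 target genes in the AGO2-IP (red circles) and the flow-through (blue squares). Points are means over 2 mimic libraries against 1 control library, bars with ticks span the 2 mimic libraries, and dotted lines are medians of all genes. SMARCA5 stands at 2.37 in the AGO2-IP, and its flow-through bar spans -1.19 to 1.48.

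The 4 comparisons share libraries, so their values are given side by side and were not compared as independent. The SMARCA5 ratio of mimic over control was 2.37 for the AGO2-IP against 0.15 for the flow-through. MTOR (0.72 and 0.96), IGF1R (0.21 and 0.61), HS3ST3B1 (0.40 and 0.73) and MTMR3 (0.68 and 0.96, and 0.15 and 0.68 or -0.16 and 0.32 on the strand columns) had a larger ratio in the flow-through than in the AGO2-IP. Several scalings moved all genes together, so the distance of the targets from the median of all genes was followed too. It was 0.58 for the mimic fractions (0.29 to 1.39 over 20 alternatives), 0.29 for the control pair (0.19 to 0.61 over 10), 0.27 for mimic over control in the AGO2-IP (0.12 to 0.40 over 13) and 0.36 in the flow-through (0.33 to 0.58 over 13).

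**Figure D4:**
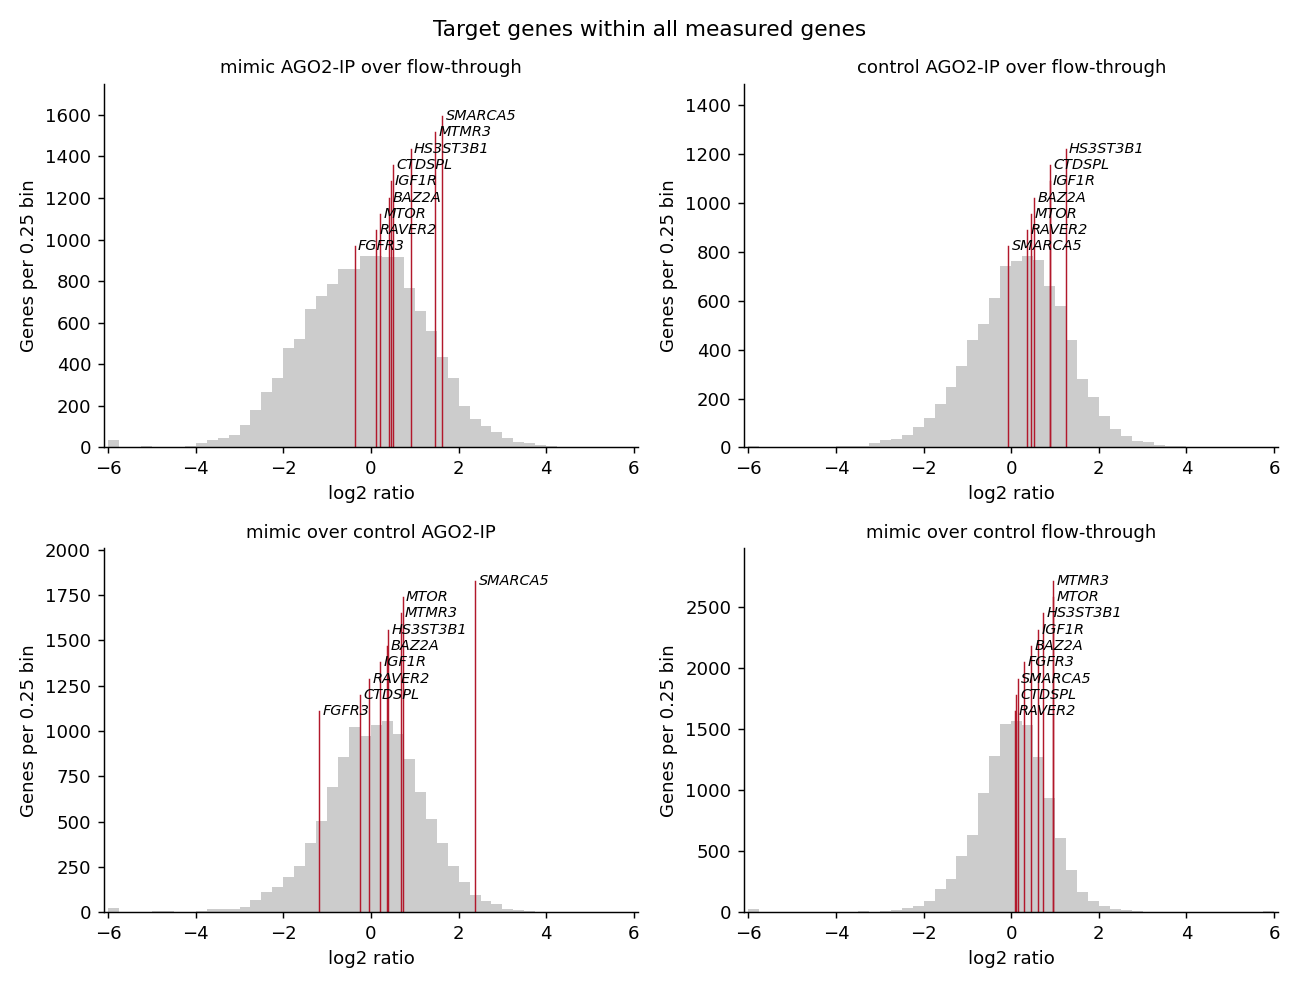
Distribution of the log2 ratio over all measured genes (grey bars, genes per bin of 0.25, values past 6 in either direction in the end bins) in the 4 comparisons, with each target gene as a red line. The targets lie within the body of each distribution, and SMARCA5 in mimic over control AGO2-IP, at 2.37, is the farthest out.

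Base composition moved with several of these values. The transcript of SMARCA5 has the lowest GC content of the 9 (38.4%) and that of FGFR3 the highest (62.0%). These were also the targets whose flow-through libraries differed most, by -2.67 and 2.56 on the log2 scale (replicate 2 over replicate 1). Part of the SMARCA5 difference lies in the pairs kept by the unstranded count. It kept 4793 of 5954 strand-column pairs in replicate 1 (80.5%) and 554 of 1384 in replicate 2 (40.0%). Pearson's r of this difference with GC content was 0.96 over the 9 targets and Spearman's rho was 0.72, and over 11747 protein-coding genes they were 0.73 and 0.75. The mimic over control ratio in the AGO2-IP correlated with GC content with r of -0.74 and rho of -0.27 over the 9 and with -0.56 and -0.60 over 10812 genes. For the mimic fold change of AGO2-IP over flow-through they were -0.62 and -0.57 over the 9 and -0.55 and -0.55 over 11747 genes. The control pair had the opposite sign, with 0.64 and 0.36 over 7 targets and 0.12 and 0.13 over 8108 genes. Genes are not independent replicates, and the points share the same libraries. After each library's trend on GC content was removed, SMARCA5 stood at 1.16 (edgeR adjusted p = 0.187) for the mimic fractions and at 1.57 for mimic over control in the AGO2-IP. With the replicate number as a block as well, SMARCA5 (1.28, edgeR adjusted p = 0.0344) and MTMR3 (1.54, edgeR adjusted p = 0.0210) passed the call, as did 12.7% of all genes as enriched, with 10.9% depleted.

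**Figure D5:**
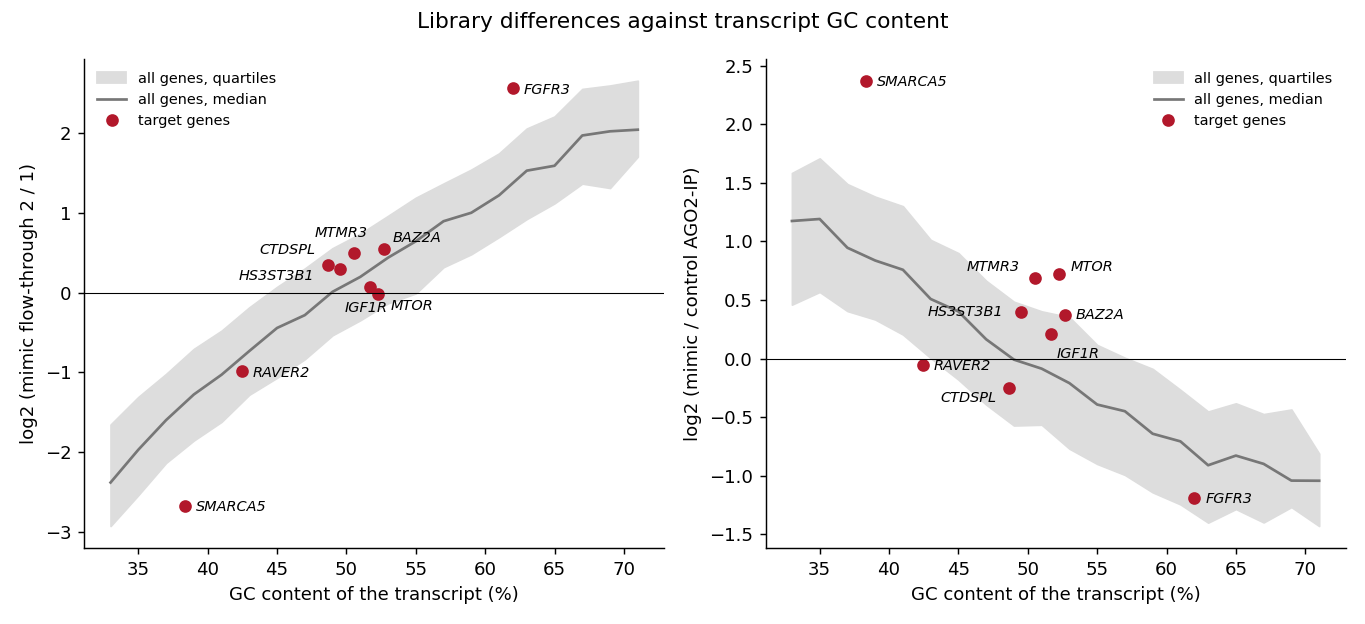
Left, log2 ratio of mimic flow-through replicate 2 over replicate 1, and right, log2 ratio of mimic over control in the AGO2-IP, against the GC content of the transcript. Red points are the 9 targets, and the grey line and band are the median and quartiles of protein-coding genes in bins of 2 percentage points. SMARCA5 lies at 38.4% GC and FGFR3 at 62.0%, and SMARCA5 is outside the band in both panels.

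The targets can be set beside all genes with the same class of seed match. The 37 tested protein-coding genes with an 8mer, the 5 targets among them, had a median log2 fold change of 0.85 for the mimic fractions (0.87 for the 32 others) and 75.7% lay above 0. The medians were 0.36 for 120 genes with a 7mer-m8, -0.04 for 103 with a 7mer-A1, -0.10 for 523 with a 6mer and -0.05 for 10945 without a match. Without the mimic, in the control pair, they were 0.66, 0.73, 0.45, 0.44 and 0.21 in the same order. For mimic over control the medians of the 8mer genes were 0.45 for the AGO2-IP and 0.16 for the flow-through, against 0.09 and 0.07 for genes without a match. With the 5 targets left out they were 0.71 and 0.11. Median 3′UTR length was 3705 bases in the 8mer genes and 1304 bases without a match, and median GC content was 42.9% and 47.9%. Protein-coding genes in the bin centred on 43% GC, whatever their match, had a median of 0.51 for mimic over control AGO2-IP. The part of 3′UTR length and of GC content in the medians of the match classes was not tested. One 8mer gene was called, TARDBP, an RNA-binding protein of splicing regulation (log2 fold change 3.38, SE 0.65, edgeR adjusted p = 0.0490), and its control ratio was 3.05. NR6A1, a nuclear receptor (3.31), and ETFDH, a mitochondrial electron transfer enzyme (2.64), came next, while ST6GALNAC4 (-1.97), CYP20A1 (-1.40) and TTC39A (-0.72) were lowest. All 5 targets with an 8mer lay between these ends.

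Paralogs of the targets and partners of their proteins, 38 genes such as INSR for IGF1R, RPTOR for MTOR and BAZ1A for SMARCA5, carried a 3′UTR match of 7 or 8 bases in 1 case among the 34 tested. Their median log2 fold change for the mimic fractions was -0.02 and 16 of 34 lay above 0, against 0.47 and 8 of 9 for the targets. None was called by edgeR, and 8 of 34 had an unadjusted p under 0.05, near the 23.8% of all genes. SMARCA1, the ISWI paralog of SMARCA5, was highest (2.19, SE 0.61, edgeR adjusted p = 0.0855), followed by CTDSPL2, a paralog of CTDSPL (1.93, SE 0.79, edgeR adjusted p = 0.176). MLST8, a subunit of both mTOR complexes (-3.01, SE 0.68, edgeR adjusted p = 0.0617), and RAVER1, the paralog of RAVER2 (-2.23, SE 0.71, edgeR adjusted p = 0.113), were lowest. In the AGO2-IP SMARCA1 was also higher with the mimic than with the control, by 2.28, close to the 2.37 of SMARCA5. It was not alone in this, since TTF1, listed as a partner for BAZ2A, stood at 2.27. BAZ1A stood at 2.18, RSF1, also listed for SMARCA5, at 2.09 and RICTOR, listed for MTOR, at 1.73. The 32 paralogs and partners measured there ran from -1.77 to 2.28, with a median of 0.09. In the control pair the median of 30 measured paralogs and partners was -0.15, against 0.52 for the 7 targets.

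The gene whose log2 levels followed each target most closely over the 6 libraries, by the root mean square difference after centring among 11897 genes, was ZNF211 for MTOR (0.089), ATP6V1H for IGF1R (0.086), SPATA13 for CTDSPL (0.055), MORN1 for BAZ2A (0.082), CAPN15 for FGFR3 (0.15), CCNA2 for MTMR3 (0.095), DCAF12 for RAVER2 (0.099) and DSTYK for HS3ST3B1 (0.094). The nearest to SMARCA5, UTP15, was farther off (0.22) than the nearest gene of any other target. RBMS2, which overlaps 5.47% of the BAZ2A exon bases on the opposite strand, had 658 to 13296 counts, and MTOR-AS1 had at most 4.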

How the data were processed

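The authors trimmed paired-end reads with Cutadapt 3.5 after FastQC 0.11.9, aligned them to GRCh38 with STAR 2.7.11b and deposited STAR's counts of read pairs per gene, whole numbers without normalization. The unstranded counts were used, and each strand column was an alternative. STAR leaves out pairs that map to several places or, unstranded, to overlapping genes. The Ensembl release is not given in the sources used here. GENCODE 44 named 60463 of 60708 identifiers and gave 1 transcript per gene. Rows that name no gene (21.4% to 95.0% of pairs) stayed out of library sizes and tests.

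Mimic fractions were compared with edgeR 4.0.16 (R 4.3.3; quasi-likelihood test, TMM, Benjamini-Hochberg adjustment) keeping genes whose counts summed to 200 or more over the 4 libraries. SE is the log2 fold change divided by the square root of F. Comparisons with the single control libraries are log2 ratios with a prior count of 2 and no test, and their 95% intervals treat the counts as Poisson. Replicate numbers pair the fractions of a biological replicate per the labels, and deviations of same-numbered libraries correlated across genes (r 0.32, rho 0.24). Alternatives were PyDESeq2 0.5.4, DESeq2 1.42.0 size factors, other scalings, filters and count columns, GC trend removal, thinning, the replicate block and each library left out.

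The target list and all other lists were chosen with earlier results of these data known. Named genes are the 9 targets, AGO2, the paralogs and partners that were called and the 2 highest and 2 lowest of them, the 3 highest and 3 lowest 8mer genes, the nearest pattern per target, and overlapping genes. INSR, RPTOR and BAZ1A are named as examples of their list, and TTF1, RSF1 and RICTOR for their mimic over control ratios in the AGO2-IP. Counting error follows from the counts given, 10 to 9517 per target and library, and the spread between libraries adds to it. Reads carry no molecular identifiers.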

Additional observations from a re-analysis of the deposited data

Results flagged for a closer look

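SMARCA5 had a positive fold change with the mimic and a control ratio slightly below 0. Its log2 fold change of AGO2-IP over flow-through was 1.62 with the mimic, above 0 for each of the 4 pairings of single libraries, and -0.06 in the control pair. The difference between them, 1.70 (SE 1.38), had an unadjusted p of 0.243 and an adjusted p of 0.9999 in edgeR's quasi-likelihood fit of all 6 libraries. The test did not tell it apart from 0. With 1 control library per fraction, the spread of the control was assumed and not measured. With flow-through replicate 1 left out the difference was 3.59 (edgeR adjusted p = 0.0547), and with flow-through replicate 2 left out 0.91. With the GC trend removed SMARCA5 was above 0 in both, at 1.16 with the mimic and 0.26 with the control, and the difference was 0.92.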

How the results depend on the processing

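Over all genes, the calls for the mimic fractions (32 higher, 54 lower) moved by more than 1.5 times under most alternatives. Given as higher and lower, they were 13 and 33 with DESeq2 size factors, 465 and 330 with the GC trend removed, 1658 and 1427 with the GC trend removed and the replicate block, 838 and 1077 by PyDESeq2, 9 and 18 with TMM over every gene (an alternative chosen after seeing the data), 1 and 17 on column 3, 2 and 12 on column 4, 76 and 119 after thinning, 9 and 35 with library size alone, 419 and 204 without a count filter, 0 and 0 over protein-coding genes only, 601 and 664 with the replicate block, 144 and 86 at a minimum of 10 and 88 and 144 at 1000. Leaving out each library gave 2 to 2476 higher and 20 to 2527 lower, with the lowest counts without AGO2-IP replicate 2 and the highest without flow-through replicate 1. Target calls stayed at 0, save 2 higher with the GC trend removed and the replicate block and 1 (SMARCA5) without flow-through replicate 1 (range 0 to 1). The replicate block alone called no target, with SMARCA5 at 2.15 (edgeR adjusted p = 0.0569).

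The targets' median of 0.47 became 0.69 with the GC trend removed, with or without the block, 0.87 with TMM over every gene or without a filter, 0.34 after thinning, 0.83 at a minimum of 10, 0.35 at 1000 and 0.31 to 0.68 with a library left out. FGFR3 turned to 1.12 (GC trend), 1.23 (GC trend and block), 0.20 (TMM over every gene, and no filter), 0.12 (block) and 0.14 (minimum of 10), with a range of -1.21 to 1.46 with a library left out. RAVER2 turned to -0.43 (GC trend, with or without the block) and -0.013 (minimum of 1000), with a range of -0.32 to 0.64.

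In the control pair the median of 0.52 became 0.86 on column 3 and 1.20 with library size alone, where 6 targets reached 1 (2 on column 4). In mimic over control AGO2-IP the median of 0.37 became 0.49 (GC trend), 1.03 (TMM over every gene, with 5 targets at 1 or above), 0.23 (column 3), 0.20 (column 4), 0.15 (library size alone) and 0.28 to 0.50 with a library left out, and 0 targets lay at -1 or below under the first 2 of these, where FGFR3 moved to -0.33 and -0.54. On either strand column, after thinning and with either library left out that count was 0 because FGFR3 did not pass the count filter. In the flow-through the median of 0.44 became 0.73 (TMM over every gene, 3 targets at 1 or above), 0.28 (thinned), 0.88 (library size alone, 4 targets), 0.70 (1 fit of all 6 libraries) and 0.55 to 0.70 with a library left out, when 1 to 2 targets reached 1 and 0 to 1 lay at -1 or below (column 4 put 1 at 1 or above).

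The median difference between mimic and control, -0.29, became -0.055 (GC trend), 0.085 (TMM over every gene, and no filter), -0.97 (library size alone), -0.16 (minimum of 10), -0.18 (minimum of 1000) and -0.43 to -0.13 with a library left out. TMM over every gene and no filter each turned MTOR to 0.15, CTDSPL to 0.017, BAZ2A to 0.28, MTMR3 to 0.085, RAVER2 to 0.15 and HS3ST3B1 to 0.052. The GC trend turned MTOR to 0.16 and BAZ2A to 0.37, column 3 turned RAVER2 to 0.075 and a minimum of 10 turned BAZ2A to 0.10. With a library left out MTOR ran from -0.38 to 0.021, BAZ2A from -0.34 to 0.20 and RAVER2 from -0.64 to 0.36. The cause of these moves was not tested. FGFR3 has too few control counts for a ratio of the control fractions, and a difference there was not detectable at this depth. MTMR3 had enough of them on the strand columns only, which may include pairs of the overlapping gene.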
